A study of Mus musculus with 11 samples.

Results

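RNA of skeletal muscle was unevenly spread over the bone libraries of this study: 7 of the 11 libraries of whole distal tibia held between 78.0 and 612 CPM (counts scaled to the size of each library) summed over 4 muscle genes, and the other 4 held between 6.64 and 10.8. The 7 are called muscle-rich and the 4 muscle-poor. The sets were chosen by the measured levels of Atp2a1, Ckm, Pvalb and Actn3, so differences between the sets in muscle genes, and in any other gene, are given as a description with no test. The SE beside such a difference is likewise not to be read as a test. The library just inside the muscle-rich set, BMAd-DTA replicate 4, had a marker sum of 78.0 CPM, and the library just outside it, BMAd-DTA replicate 3, had 10.8 CPM, a ratio of 7.24.

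The libraries came from C57BL6/SJL mice aged 24 weeks, fed ad libitum, with no treatment. Every mouse, the controls included, carried Osterix-FLPo and FAC, a FLPo-dependent Cre placed at the Adipoq gene, so that Cre is made only where Osterix and then Adipoq have both been active, as in marrow adipocytes. The 7 BMAd-DTA mice also carried ROSA-DTA, a diphtheria toxin A gene behind a loxP-flanked stop, and the 4 control mice, labelled BMAd-WT, did not. In this model the toxin reaches only cells that have recombined, and recombination is incomplete. The sex of the mice was not given in the labels used here, and the paper's legend of the figure with the RNA-Seq names male mice. Distal tibiae were cut at the junction of tibia and fibula, and the whole bone was frozen and powdered before RNA was extracted, with 1 library per mouse. The muscle-rich set held 3 of the 4 Control libraries and 4 of the 7 BMAd-DTA libraries. The muscle-poor set held Control replicate 4 and BMAd-DTA replicates 2, 3 and 5. Library totals lay between 16969529 and 18637663 counts, and 16496 of 22600 genes passed the filter on low counts. In such bulk samples, fewer cells of a type and less RNA per cell cannot be told apart.

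Skeletal muscle fibres contract when myosin heads pull on actin filaments inside repeating sarcomeres, after calcium is released from the sarcoplasmic reticulum, and they relax when the calcium is pumped back. Fast and slow fibres use different forms of the same proteins, and each fast myosin heavy chain marks a fibre type. Muscles of the lower leg lie against the tibia and their tendons run over its distal end, whereas the marrow inside holds blood-forming cells, stroma, bone cells and adipocytes.

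The promoters of the marker genes are shown because these genes define the sets. The sequences are the 250 bases before the RefSeq start in GRCm38.p6, written 5′ to 3′ on the strand of the gene: Ckm at chr7:19410844-19411093 on the plus strand, Atp2a1 at chr7:126463074-126463323 on the minus strand, and Pvalb at chr15:78206401-78206650 on the minus strand. Capitals mark CAGCTG, a letter form of the E-box that myogenic basic helix-loop-helix factors are known to bind and that reads the same on both strands.
Ckm: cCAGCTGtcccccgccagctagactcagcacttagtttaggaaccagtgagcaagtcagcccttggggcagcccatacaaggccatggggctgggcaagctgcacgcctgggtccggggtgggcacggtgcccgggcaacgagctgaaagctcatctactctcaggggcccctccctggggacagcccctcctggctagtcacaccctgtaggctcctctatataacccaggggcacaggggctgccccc
Atp2a1: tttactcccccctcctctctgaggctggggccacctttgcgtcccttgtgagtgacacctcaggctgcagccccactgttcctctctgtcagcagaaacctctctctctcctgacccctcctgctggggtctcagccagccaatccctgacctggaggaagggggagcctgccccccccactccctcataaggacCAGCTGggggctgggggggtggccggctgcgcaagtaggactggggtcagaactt
Pvalb: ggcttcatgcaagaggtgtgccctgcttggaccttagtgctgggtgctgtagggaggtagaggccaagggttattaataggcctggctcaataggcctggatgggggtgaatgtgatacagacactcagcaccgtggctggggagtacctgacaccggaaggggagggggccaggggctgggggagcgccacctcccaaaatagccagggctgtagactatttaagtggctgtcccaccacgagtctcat
CAGCTG was found 1 time in Ckm, 1 time in Atp2a1 and 0 times in Pvalb. Among 27025 RefSeq promoters of the same length, the first entry per gene, 12.8% held CAGCTG. Of the 38 muscle-list genes described as higher in the muscle-rich set below, 26 had a promoter in the table, of which 14 held CAGCTG, or 53.8%. These genes include Ckm and Atp2a1 and were listed as muscle genes beforehand. Muscle-list genes that were not separate were not counted, so the share is no result about the sets. A match is a run of letters and not a measured binding site. Actn3 is named only.

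Atp2a1 (ENSMUSG00000030730), at chr7:126445858-126463108 of mm10, encodes the fast-fibre calcium pump SERCA1. It had 44.1, 124 and 349 CPM as the lowest, median and highest value of the muscle-rich libraries and 3.37, 4.18, 5.11 and 5.34 in the muscle-poor libraries. The fitted log2 difference, muscle-rich minus muscle-poor with genotype as a covariate, was 5.03 (SE 0.58). Ckm (ENSMUSG00000030399), at chr7:19404776-19422841, encodes the muscle creatine kinase that buffers ATP. It had 15.8, 42.8 and 120 CPM in the muscle-rich libraries against 0.726, 0.802, 1.55 and 1.87, a log2 difference of 5.52 (SE 0.72). Pvalb (ENSMUSG00000005716), at chr15:78191114-78206400, encodes parvalbumin, the soluble calcium buffer of fast fibres. It had 9.07, 23.4 and 68.2 CPM against 0.229, 0.363, 0.454 and 0.631, a log2 difference of 5.96 (SE 0.73), and its muscle-poor values rested on 4 to 11 counts a library. Actn3 (ENSMUSG00000006457), at chr19:4861216-4877909, encodes the alpha-actinin of fast-fibre Z-discs. It had 7.87, 18.1 and 76.8 CPM against 2.18, 2.35, 2.70 and 3.35, a log2 difference of 3.29 (SE 0.59). All 4 genes were lowest in the same 4 libraries, which is what chose them, and Actn3 kept the largest share of its level there: the muscle-poor mean was 9.05% of the muscle-rich mean, against 1.44% for Pvalb, 2.12% for Ckm and 2.84% for Atp2a1.

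**Figure D1:**
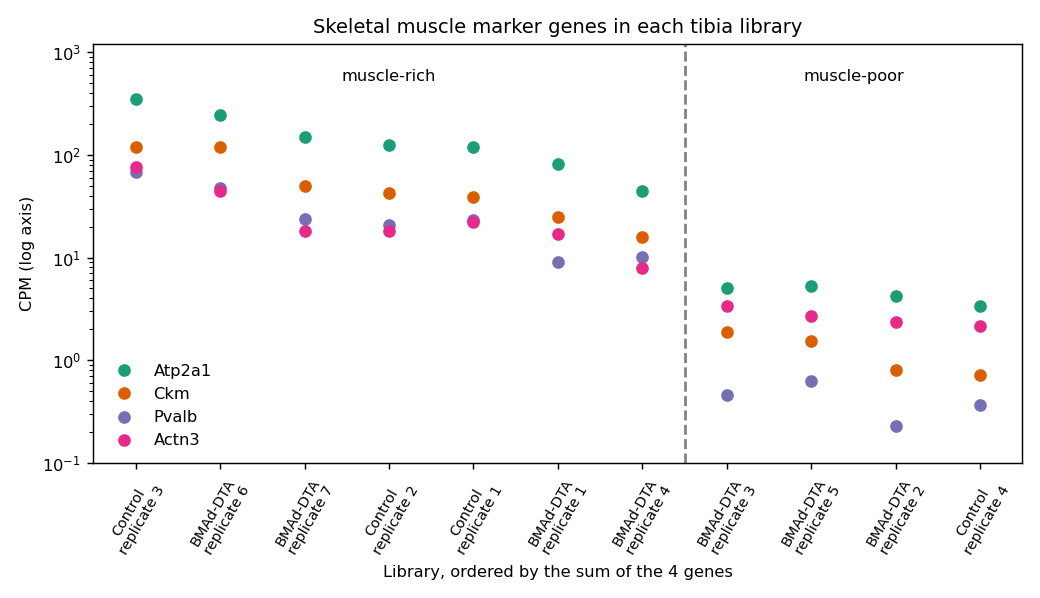
CPM of the 4 marker genes (log axis) in each of the 11 libraries, ordered by their summed CPM, with a dashed line between the muscle-rich and the muscle-poor set. Atp2a1 is at 44.1 CPM or more to the left of the line and at 5.34 or less to its right.

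Within the sets the spread was unequal. Among the muscle-rich libraries the marker sum ran from 78.0 CPM in BMAd-DTA replicate 4 and 131 in BMAd-DTA replicate 1 to 454 in BMAd-DTA replicate 6 and 612 in Control replicate 3, a range of 7.84 times, and Control replicates 1 and 2 and BMAd-DTA replicate 7 lay between 205 and 240. Among the muscle-poor libraries it spanned 1.62 times. The genes of all skeletal muscle lists together made up 0.288% to 0.491% of the counts in the muscle-rich libraries and 0.268% to 0.276% in the muscle-poor ones. These totals include Aldoa, Tpm1 and Tpm3, which other cells also make and which overlapped between the sets.

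By genotype, the log2 marker sum was 6.84 ± 2.84 (SD, n = 4) in Control and 5.68 ± 2.42 (SD, n = 7) in BMAd-DTA libraries. The difference, BMAd-DTA minus Control, was -1.16, less than the spread between libraries (two-sided exact permutation test over 330 splits, p = 0.461). Among the muscle-rich libraries alone it was -0.69, given with no test because the same sums chose these libraries. Within Control and within BMAd-DTA the sets differed by 5.64 and 4.43 on the log2 scale for Atp2a1, by 6.14 and 4.77 for Ckm, by 6.12 and 5.15 for Pvalb and by 3.78 and 2.67 for Actn3, with 1 Control library on the muscle-poor side.

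Across all genes, 69 of 16496 genes tested (0.418%) were higher in every muscle-rich than in every muscle-poor library and at least 2-fold higher in the fit, and 0 (0%) were lower by the same measure. The 0 depended on the filter and the libraries: it became 19 with no filter on low counts and 1 to 18 when 1 library was left out. Without the size limit, 109 genes (0.661%) were higher with no overlap and 36 (0.218%) were lower. Of the 69, 38 belonged to the skeletal muscle lists, 0 to the 22 lists of other tissues and states, and 31 to no list. The median log2 difference over all tested genes was -0.0005. In the BMAd-DTA libraries taken alone, where the separation over all 11 libraries fixes the separation in advance, 66 of the 69 genes kept a mean difference of at least 2-fold.

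Genes of the fast-fibre sarcomere made up the largest group. Of 25 tested members, 20 were higher with no overlap at 2-fold, beside 0.418% of all genes tested. The list median was 3.60 on the log2 scale. Myh4, the IIb myosin heavy chain, had 37.1, 106 and 289 CPM in the muscle-rich libraries and 1.43, 1.78, 2.07 and 2.95 in the muscle-poor libraries, a log2 difference of 5.96 (SE 0.63). Myh1, the IIx chain, had 2.79, 15.9 and 57.4 CPM against 0, 0.113, 0.229 and 0.311, the largest difference of the list with counts in the muscle-poor set, 6.93 (SE 1.12). Myh2, the IIa chain, had 0.650, 7.72 and 15.7 CPM against 0.0519, 0.0567, 0.0574 and 0.344, a difference of 5.95 (SE 1.08). The muscle-rich and muscle-poor values of all 3 chains stood apart, but the order of the libraries was not the same for each chain: Control replicate 3 was the highest library for Myh4 and the lowest of the muscle-rich libraries for Myh2.

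Acta1, the actin of skeletal thin filaments, had 28.7, 92.6 and 203 CPM against 1.38, 1.66, 2.53 and 3.29, a log2 difference of 5.58 (SE 0.62). Tnnc2, the calcium-binding troponin of fast fibres, differed by 5.60 (SE 0.75), Tnnt3, its tropomyosin-binding partner, by 4.20 (SE 0.59), and Tnni2, the inhibitory troponin, by 3.59 (SE 0.51). The light chains Myl1 and Mylpf differed by 3.56 (SE 0.48) and 2.29 (SE 0.44). The giant proteins that hold the sarcomere together, Ttn and Neb, differed by 3.52 (SE 0.44) and 3.60 (SE 0.46), and the Z-disc genes Tcap, Myoz1 and Myot by 4.18, 4.04 and 4.89. Smpx, a small protein of striated muscle, had 0 counts in all 4 muscle-poor libraries and 5 to 33 counts in each muscle-rich library, so it was at least 21.4-fold higher against a floor of 3 counts over the muscle-poor set. The list median stayed at 3.60 with Smpx at that bound. Mybpc2 overlapped between the sets, with 6.77 to 34.4 CPM against 3.40 to 7.16. Tpm1 (log2 difference 0.01) and Myom1 (-0.04, SE 0.15) overlapped widely: Myom1, an M-band protein, was at 51.5 to 77.7 CPM in the muscle-rich and 51.6 to 94.5 CPM in the muscle-poor libraries.

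**Figure D2:**
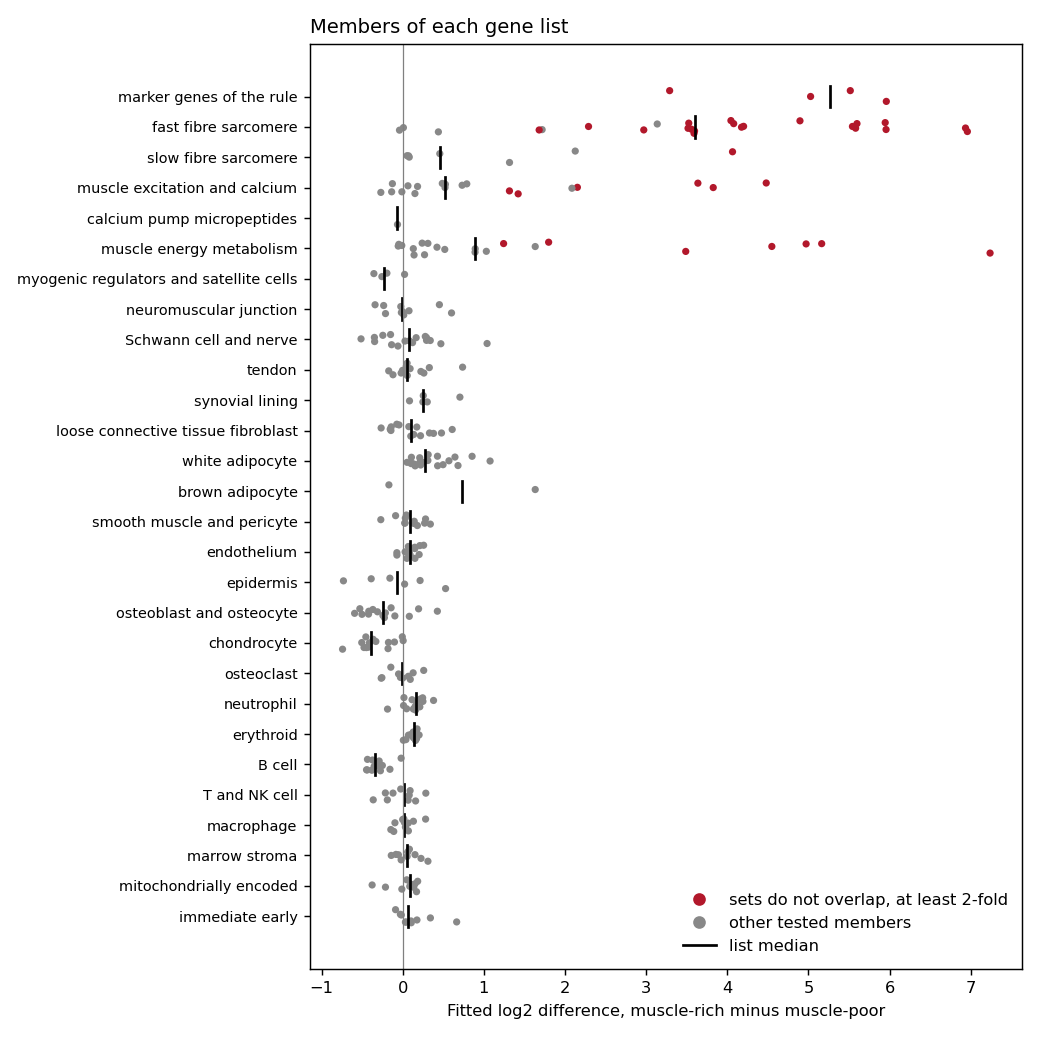
Fitted log2 difference between the muscle-rich and the muscle-poor libraries (horizontal axis) for each tested member of the 28 gene lists (rows). Red points are members whose sets do not overlap and that differ at least 2-fold, grey points are the other members, and black bars are list medians, which lie at 3.60 for the fast-fibre sarcomere and between -0.39 and 0.73 for the lists that are not of skeletal muscle.

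The median of the slow-fibre list was 0.46. Of its genes, 1 of 7 tested members was higher with no overlap at 2-fold, beside 0.418% of all genes tested. That member, Mybpc1, the slow-type myosin-binding protein C, had 3.35, 9.37 and 33.3 CPM against 0.172, 0.311, 0.745 and 0.908, a log2 difference of 4.06 (SE 0.68). Myh7, the slow myosin heavy chain, did not pass the filter on low counts. It had 1, 1 and 9 counts in the muscle-rich Control libraries 1, 2 and 3, 84, 6, 145 and 48 counts in BMAd-DTA replicates 1, 4, 6 and 7, and 0 counts in all muscle-poor libraries, so that the muscle-rich level was at least 57.1-fold higher against a floor of 3 counts over the muscle-poor set. Mybpc1 did not follow Myh7 among the muscle-rich libraries. Its highest value, 33.3 CPM, was in Control replicate 3, and its lowest, 3.35, in BMAd-DTA replicate 6, where Myh7 had the most counts. Myl2, the slow regulatory light chain, had 0.606, 0.929 and 6.52 CPM in the muscle-rich libraries and 0.0519 to 0.803 in the muscle-poor ones, with overlap. Tnnc1, the slow and cardiac troponin C, reached 6.75 CPM in BMAd-DTA replicate 6 and 2.41 in the muscle-poor BMAd-DTA replicate 2, also with overlap. Atp2a2, the calcium pump of slow fibres that many other cells use, differed by 0.05 (SE 0.06), and Tpm3, the member with the highest mean CPM, by 0.07 (SE 0.06). The list median lay between 0.46 and 1.41 when 1 library was left out, with 1 to 3 members separate. The tested members changed too, as the filter was applied anew. Without Control replicate 1, 2 or 4, 9 members were tested, with medians of 1.38, 1.41 and 1.28. Without Control replicate 3, 8 were tested (median 0.74). Where 7 were tested, the median lay between 0.46 and 0.64.

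The fibre makeup of the muscle RNA differed from library to library. Of the summed counts of Myh4, Myh1, Myh2 and Myh7, whose exon lengths range from 6016 to 8616 bases, Myh4 took from 58.4% (exact binomial 95% interval 56.6 to 60.2) in Control replicate 2 to 93.2% (92.4 to 94.0) in BMAd-DTA replicate 6. Myh1 took 33.4% (31.7 to 35.2) in Control replicate 2 and 2.47% (2.02 to 2.99) in BMAd-DTA replicate 6. Myh2 took 0.195% (0.0975 to 0.349) in Control replicate 3 and 12.6% (11.05 to 14.36) in BMAd-DTA replicate 1. Myh7 took 0.0343% in Control replicate 2, 3.47% in BMAd-DTA replicate 6 and 5.23% in BMAd-DTA replicate 1. These shares are of counts, with no correction for length, and the intervals cover counting error only. The muscle-poor libraries had 32 to 55 counts of the 4 genes in all, of which Myh4 took 71.4% to 96.9%, so that a share such as that of Myh7 there has an upper limit of 6.49% to 10.9%.

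**Figure D3:**
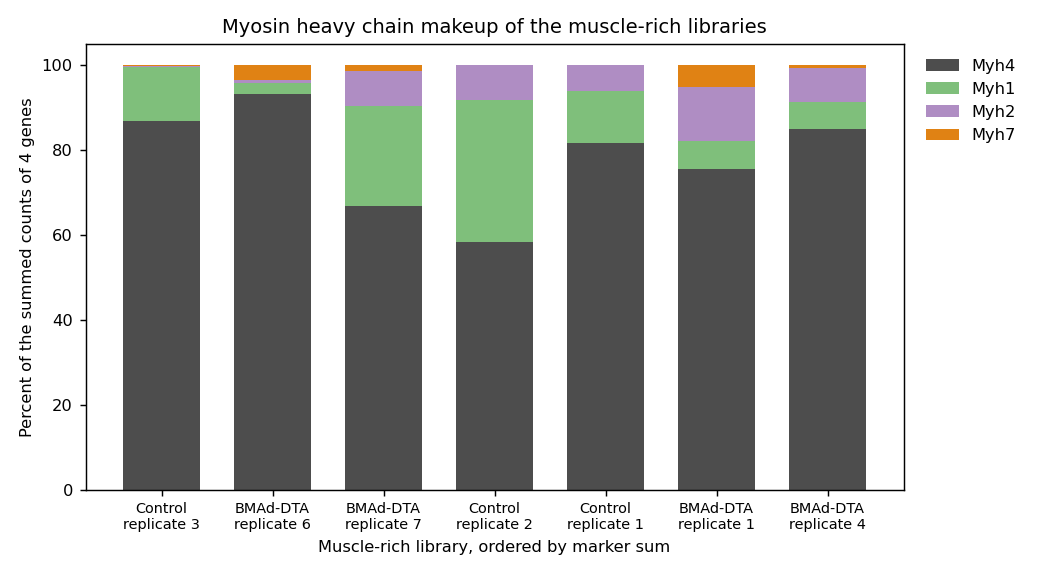
Share of each of 4 myosin heavy chain genes in their summed counts (percent, stacked bars) in the 7 muscle-rich libraries, ordered by marker sum. Myh4 takes the most counts in every bar, from 58.4% to 93.2%, and Myh1 is at 33.4% in Control replicate 2 and 23.5% in BMAd-DTA replicate 7.

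Of the genes of excitation and calcium handling, 6 of 19 tested members were higher with no overlap at 2-fold, beside 0.418% of all genes tested. The list median was 0.53. Casq1, the calcium-storing protein of the sarcoplasmic reticulum in fast fibres, had 3.88, 10.3 and 23.7 CPM against 0.115, 0.415, 0.567 and 0.803, a log2 difference of 4.48 (SE 0.63). Its partners Trdn and Jsrp1 differed by 3.64 (SE 0.52) and 3.83 (SE 0.73). Cacna1s, the voltage sensor of the transverse tubule, differed by 2.15 (SE 0.42), Ryr1, the release channel it opens, by 1.42 (SE 0.26), and Jph2, which ties both membranes together, by 1.32 (SE 0.33). Members with wider expression stayed near 0, and Scn4a, the muscle sodium channel, had 4.41 to 11.2 CPM in the muscle-rich and 7.47 to 14.4 CPM in the muscle-poor libraries (log2 difference -0.27, SE 0.27). Bin1, the member with the highest mean CPM, was at 45.2 to 75.9 CPM and 56.8 to 83.8 CPM. Of the micropeptides that act on the calcium pump, Pln was the only one tested, at 1.15 to 2.25 CPM against 0.908 to 2.12 (log2 difference -0.07, SE 0.28). Sln had 0 to 10 counts in the muscle-rich libraries and 0 in the muscle-poor ones, Mrln had at most 6 counts in any library, and Strit1 was not analysed here.

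Of the genes of muscle energy metabolism, 7 of 21 tested members were higher with no overlap at 2-fold, beside 0.418% of all genes tested. The list median was 0.89. Without Control replicate 3 it was 0.58, over 22 tested members. Mb, myoglobin, had 2.08, 5.07 and 8.85 CPM against 0, 0.156, 0.170 and 0.344, a log2 difference of 4.97 (SE 0.65). Ckmt2, the mitochondrial creatine kinase, Ampd1, the muscle AMP deaminase, and Pgam2, the muscle phosphoglycerate mutase, differed by 5.16 (SE 0.91), 4.55 (SE 0.66) and 3.49 (SE 0.60). Pygm, the muscle glycogen phosphorylase, differed by 1.24 (SE 0.34), with 24.0 to 74.8 CPM against 13.8 to 23.6, and Phkg1, a subunit of the kinase that activates it, by 1.80 (SE 0.41). Ppp1r3a, which targets a phosphatase to glycogen, had 0 counts in every muscle-poor library and 8 to 28 in each muscle-rich library, at least 26.6-fold higher against the same floor. Eno3 was separate but under 2-fold, at 0.89 (SE 0.29). Enzymes shared with other cells overlapped: Aldoa had 593 to 774 CPM against 578 to 642, Ldha differed by -0.01 (SE 0.09), and Pdk4 by -0.05 (SE 0.19).

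Genes of the muscle stem cell and of the nerve contact that passed the filter on low counts did not show the same separation. Over all genes tested the share of separate and higher genes was 0.418%, so 0 in lists of 4 and 10 genes lies near it. Of the myogenic regulators and satellite cell genes, 0 of 4 tested members were separate and the median was -0.23. Pax7, the defining satellite cell gene, had 0 to 4 counts in any library and did not pass the filter. Below the filter too, 2 regulators of myogenesis had 0 counts in all 4 muscle-poor libraries: Myod1 had 0 to 15 counts in the muscle-rich libraries, and Myf6 had 1 to 11 there, at least 6.80-fold higher against the floor of 3 counts over the muscle-poor set. Cdh15, a cadherin of satellite cells, had 2.37 to 8.09 CPM in the muscle-rich and 2.70 to 10.3 in the muscle-poor libraries. Of the neuromuscular junction genes 0 of 10 were separate, with a median of -0.01: Chrne, the adult receptor subunit, had a difference of 0.60 (SE 0.43), and Rapsn, which clusters the receptor, -0.34 (SE 0.30).

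Of the 31 separate genes in no list, the 6 with a mean of at least 50 counts were Eef1a2, Des, Nrap, Cmya5, Txlnb and Cpxm2. Eef1a2, the elongation factor form used by muscle and neurons, had 2.57, 7.30 and 17.4 CPM in the muscle-rich libraries against 1.30, 1.36, 1.55 and 1.66, a log2 difference of 2.46 (SE 0.48). Des, the intermediate filament of muscle cells, had 13.5, 23.8 and 35.4 CPM against 5.05, 5.39, 5.44 and 6.83, a difference of 2.04 (SE 0.27). Nrap, an actin-binding protein of striated muscle, differed by 1.93 (SE 0.34) and Cmya5, the desmin-binding myospryn, by 1.45 (SE 0.29). Txlnb differed by 1.35 (SE 0.27). Cpxm2, a secreted carboxypeptidase-like protein, differed by 1.06 (SE 0.31), and its highest values, 10.02 and 5.90 CPM, were in BMAd-DTA replicates 1 and 4, the muscle-rich libraries with the lowest marker sums.

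The other 25 had lower counts. They included Myoz3 and Nctc1, with 0 counts in the muscle-poor libraries and at least 18.5-fold and 15.5-fold higher, the muscle kinase Mylk2 (5.73, SE 0.61), the Kelch proteins Klhl41 (4.10, SE 0.58) and Klhl31 (4.15, SE 0.75), and the muscle methyltransferase Smyd1 (2.63, SE 0.39), named here after their values were seen. Tpsb2, a mast cell tryptase, had 3 to 8 counts in the muscle-poor and 12 to 22 counts in the muscle-rich libraries (1.23, SE 0.35), and Wnt9a, a Wnt ligand, had 19 to 23 and 27 to 64 (1.07, SE 0.25). Both were also singled out after their values were seen.

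Beneath the 2-fold size, other well-counted genes lay higher in every muscle-rich than in every muscle-poor library. Without the size limit, 0.661% of all genes tested were higher with no overlap and 0.218% were lower. The genes named here were picked from these because they were separate. A single separate member of 15 neutrophil genes is too few to read as a result about neutrophils. Ltf, the lactoferrin of neutrophil granules, differed by 0.25 (SE 0.09), the only separate member of the 15 neutrophil genes, of which 14 had a fitted difference above 0 (median 0.16). Ncf4, a subunit of the neutrophil oxidase, had 230 to 285 CPM against 166 to 199. Ly6g, a neutrophil surface marker, had 53.4 to 61.0 CPM against 40.6 to 48.1, and C5ar1, the complement C5a receptor, 57.2 to 74.4 against 47.5 to 55.5. The summed neutrophil list did overlap, at 29675 to 31364 CPM against 22052 to 32097. Its lowest value was that of BMAd-DTA replicate 5, a muscle-poor library that stood apart in neutrophil genes, and without that library the list median was 0.09. BMAd-DTA replicate 5 had 180 CPM of Ncf4, 43.4 of Ly6g and 47.5 of C5ar1. The other muscle-poor libraries had 166 to 199, 40.6 to 48.1 and 53.6 to 55.5 CPM, also below every muscle-rich library. The fitted differences of these genes without BMAd-DTA replicate 5 are not given here. Hspb6, a small heat shock protein of smooth and striated muscle, had 29.1 to 38.3 CPM against 22.3 to 28.1. The genes lower in the muscle-rich set without overlap were small in size: A930005H10Rik had 8.54 to 15.2 CPM against 15.6 to 19.5, Rmdn1 2.99 to 4.12 against 4.42 to 5.39, and Dtna, a dystrobrevin, 17.4 to 21.2 against 22.8 to 30.8.

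Genes of the tissues that lie next to muscle outside the bone were then examined. Over all genes tested 0.418% were separate and higher at 2-fold, so 0 in a list of 5 to 17 genes lies near that share. Such a 0 does not show that a tissue was absent. Of the tendon genes, 0 of 13 were separate, and the median log2 difference was 0.05. Scx, the tendon transcription factor, had 0.589 to 2.54 CPM in the muscle-rich and 0.881 to 1.76 in the muscle-poor libraries, and Tnmd, a tendon membrane protein, 1.24 to 5.49 against 0.917 to 3.52. Tnc, a matrix protein of tendon and of bone surfaces, had 404 to 1542 CPM against 684 to 1522. Of the Schwann cell and nerve genes, 0 of 17 were separate (median 0.08). Mbp, a protein of myelin, had 88.2 to 109 CPM against 83.4 to 99.1. Of the synovial lining genes 0 of 5 were separate (median 0.25): Prg4, lubricin, had 1412 to 4019 CPM against 2202 to 2902. Of the connective tissue fibroblast genes 0 of 15 were separate (median 0.10), of the smooth muscle and pericyte genes 0 of 12 (0.09), of the endothelial genes 0 of 14 (0.09) and of the epidermal genes 0 of 6 (-0.07). With any 1 library left out, the tendon median lay between -0.04 and 0.18, the smooth muscle median between 0.005 and 0.21 and the epidermal median between -0.19 and 0.01, and 0 members of these lists were separate at 2-fold. The defining keratins of the basal epidermis were not analysed here.

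The white adipocyte genes overlapped too, with 0 of 20 separate, near the share of 0.418% over all genes tested. All 20 fitted differences were above 0, with a median of 0.28. Without Control replicate 4, or without BMAd-DTA replicate 2, 18 were above 0, and 17 without both Control replicates 1 and 4. The 20 genes were measured in the same libraries and are not replicates of each other. Adipoq, adiponectin, had the largest: 67.3, 81.4, 109 and 7.19 CPM in the muscle-rich BMAd-DTA replicates 1, 4, 6 and 7, 130, 184 and 209 in the muscle-rich Control replicates 1, 2 and 3, 28.5 in the muscle-poor Control library, and 7.97, 10.2 and 115 in the muscle-poor BMAd-DTA replicates 2, 3 and 5. The difference was 1.08 (SE 0.83), and it was 2.76 without BMAd-DTA replicate 5 and 0.58 without Control replicate 4. The list median was 0.57 without BMAd-DTA replicate 5. High and low libraries stood in both sets, as BMAd-DTA replicate 7 was low among the muscle-rich and BMAd-DTA replicate 5 high among the muscle-poor. Scd1, a fatty acid desaturase, had 369 to 2417 CPM against 385 to 1592. Of the brown adipocyte genes 2 were tested: Cox8b, a cytochrome oxidase subunit also of muscle, differed by 1.63 (SE 0.56) with overlap and by 2.71 with no overlap without BMAd-DTA replicate 3, and Dio2 by -0.17 (SE 0.14).

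Bone and marrow lists showed no separate member of 2-fold size, near the share of 0.418% over all genes tested. The medians were -0.24 for 15 osteoblast and osteocyte genes, -0.39 for 14 chondrocyte genes, -0.01 for 10 osteoclast genes, 0.14 for 14 erythroid genes, -0.34 for 13 B cell genes, 0.02 for 10 T and NK cell genes, 0.02 for 11 macrophage genes and 0.06 for 10 marrow stroma genes. Mitochondrially encoded genes had a median of 0.09 and immediate early genes 0.07. Control replicate 1, a muscle-rich library, stood apart in bone genes: Col1a1, the main collagen of bone, was at 1245 CPM there and at 5588 to 12880 in the other muscle-rich libraries, and Bglap, osteocalcin, at 25.2 against 113 to 195. The muscle-poor libraries had 5823 to 18037 CPM of Col1a1 and 83.5 to 446 of Bglap. Control replicate 4, the only muscle-poor Control library, stood apart in erythroid genes, with 7066 CPM of Hba-a1 against 11194 to 18417 in the other muscle-poor libraries. The medians of these lists moved with single libraries. Without Control replicate 4 they were -0.15 for erythroid, -0.14 for chondrocyte, -0.38 for osteoblast and osteocyte, -0.13 for B cell, and -0.16 for T and NK cell genes. Without Control replicate 1 the B cell median was -0.20 and the chondrocyte median -0.35. Without BMAd-DTA replicate 3 the medians were 0.37 for osteoclast, -0.16 for osteoblast and osteocyte, -0.58 for B cell and -0.07 for marrow stroma genes. Without BMAd-DTA replicate 5 they were 0.37 for erythroid and 0.16 for marrow stroma genes, and without BMAd-DTA replicate 2 the B cell median was -0.11. With any 1 library left out, the fast-fibre median lay between 3.43 and 3.89 with 19 to 21 members separate, and 0 members of the bone and marrow lists were separate at 2-fold.

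The 7 muscle-rich libraries also differed among themselves in the marker sum, and genes were fitted against it. The same 4 marker genes chose these libraries. The p-values below therefore hold for this chosen group only and are not independent of the choice. With genotype as a covariate, 18 of 16376 genes (0.11%) rose with the log2 marker sum at an adjusted p under 0.05 and 0 (0%) fell (edgeR quasi-likelihood test, Benjamini-Hochberg). At an unadjusted p under 0.05, 338 rose and 199 fell, and DESeq2 gave 46 rising and 4 falling. The 18 include the 4 markers themselves, which form the sum and so follow it by construction. Of the other 14, 12 were genes of the skeletal muscle lists, whose slopes describe how closely they follow the markers. Myh4 had a slope of 0.99 (SE 0.05) per doubling of the markers, Tnnt3 0.99 (SE 0.05), Acta1 0.98 (SE 0.09), Myl1 0.81 (SE 0.06) and Pygm 0.64 (SE 0.08). Slopes near 1, as in Myh4, mean that the gene doubled when the markers doubled. Myh1 and Myh2 had slopes of 0.67 (SE 0.62) and -0.91 (SE 0.70). The rising genes other than the markers numbered 7 without Control replicate 3, 8 without BMAd-DTA replicate 4 and 3 without BMAd-DTA replicate 6.

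The 2 genes outside the muscle lists that rose were Eef1a2 and Cmya5, both already among the genes separate between the sets. Eef1a2 had 2.57 CPM in BMAd-DTA replicate 4, 4.01 in BMAd-DTA replicate 1, 7.05 and 7.30 in Control replicates 1 and 2, 9.32 in BMAd-DTA replicate 7, 13.1 in BMAd-DTA replicate 6 and 17.4 in Control replicate 3. This was the order of the marker sums, and the slope was 0.92 (SE 0.10, adjusted p = 0.0147, edgeR). Cmya5 rose less steeply, from 10.8 to 35.6 CPM, with a slope of 0.55 (SE 0.07, adjusted p = 0.0427, edgeR). With 1 library left out the slope of Eef1a2 lay between 0.87 and 0.97 and passed only without Control replicate 1 (adjusted p = 0.0327, edgeR) or BMAd-DTA replicate 7 (0.0222), with an adjusted p of up to 0.204 otherwise. The slope of Cmya5 lay between 0.47 and 0.64 and passed in none of these fits (adjusted p = 0.0834 to 0.380, edgeR).

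Genes of the other tissues did not pass this test: of 248 tested members of the lists outside skeletal muscle, 0 passed the edgeR test and 0 passed in DESeq2. At an unadjusted p under 0.05 there were 9 of them (3.63%), 7 rising and 2 falling, beside 3.28% of all genes. The median slope was 0.13 for tendon, -0.06 for Schwann cell and nerve, 0.09 for fibroblasts, 0.01 for white adipocytes, 0.09 for osteoblasts and -0.05 for erythroid genes.

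**Figure D4:**
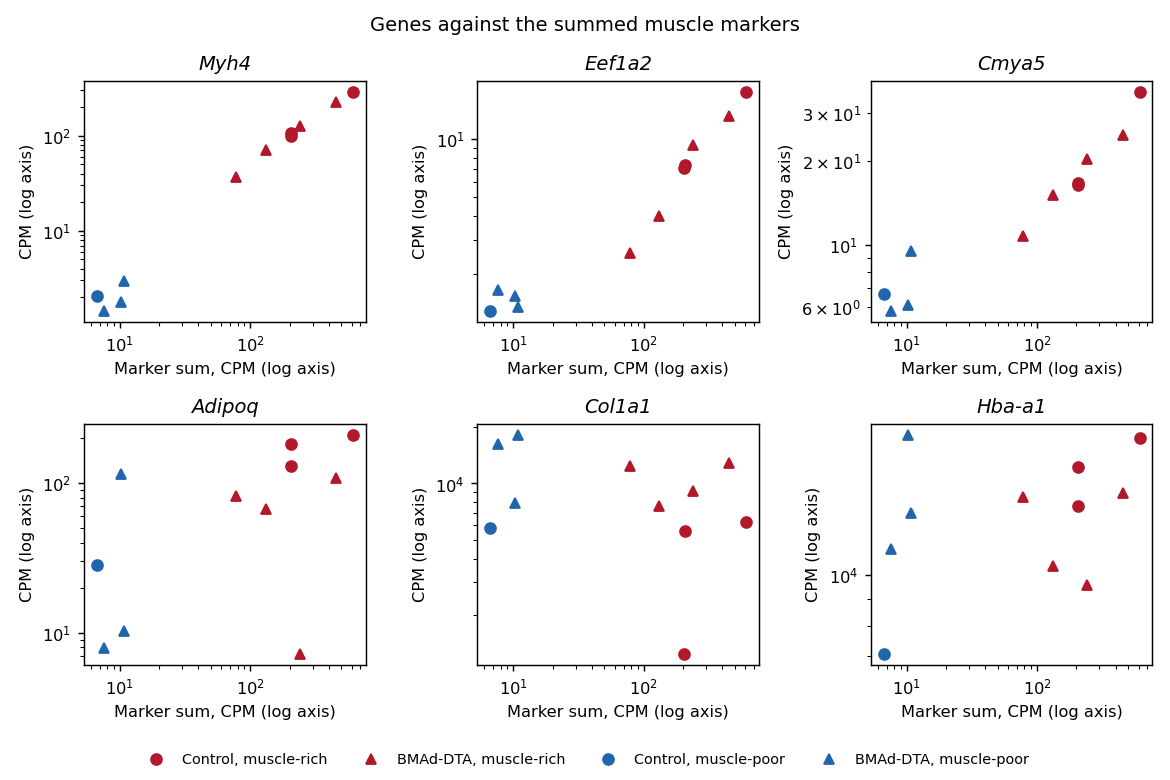
CPM of 6 genes (vertical, log axis) against the summed CPM of the 4 marker genes (horizontal, log axis) in 11 libraries, red for muscle-rich, blue for muscle-poor, circles for Control and triangles for BMAd-DTA. Myh4, Eef1a2 and Cmya5 climb with the markers among the red points, and Adipoq, Col1a1 and Hba-a1 have high and low points in both sets.

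The genotype comparison was fitted with the muscle set as a covariate to see which differences between BMAd-DTA and Control hold beside the set. The set does not match the libraries for muscle RNA, as the marker sum spanned 7.84 times within the muscle-rich set. In all 11 libraries 3 genes were higher (0.0182% of genes tested) and 1 was lower (0.00606%) in BMAd-DTA at an adjusted p of 0.0388 each (edgeR). With genotype alone, 12 were higher and 1 lower, and the 4 were among these 13. With the log2 marker sum in place of the set, 3 genes passed (edgeR). Retn, the adipokine resistin, had 6.77, 8.30, 8.74 and 9.86 CPM in the Control libraries and 2.12, 3.21 and 3.89 as the lowest, median and highest BMAd-DTA values, with a log2 difference of -1.36 (SE 0.18) and no overlap. Alpl, the alkaline phosphatase of bone-forming cells, had 97.2, 128, 157 and 183 CPM in Control and 275, 290 and 425 in BMAd-DTA, a difference of 1.09 (SE 0.15). Dpysl3, a protein of the cytoskeleton, differed by 0.84 (SE 0.11), and Zbtb7c, a zinc finger protein, by 1.04 (SE 0.14). Both genotypes were separate for all 4 genes, also within the muscle-rich libraries. These counts rested on single libraries: without Control replicate 1, 2 or 4, or BMAd-DTA replicate 1, 2, 4 or 6, 0 genes passed, with 1667 to 2221 genes at an unadjusted p under 0.05, whereas 140 passed without Control replicate 3, 28 without BMAd-DTA replicate 5, 10 without BMAd-DTA replicate 7 and 7 without BMAd-DTA replicate 3. DESeq2 gave 310 higher and 233 lower.

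No gene of the skeletal muscle lists passed for genotype (0 of 77 in edgeR). At an unadjusted p under 0.05 there were 4 (5.19%, beside 14.8% of all genes), and DESeq2 gave Casq2 and Myl2. Among the muscle-rich libraries the count was 0 of 79, with 8 at an unadjusted p under 0.05 (10.1%, beside 12.5% of all genes), and DESeq2 gave Gpd1, Myh7, Myl2 and Slc2a4.

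Among the 7 muscle-rich libraries alone, 16 genes were higher (0.0977%) and 87 lower (0.531%) in BMAd-DTA (edgeR, adjusted p under 0.05). Red cell genes stood among those that were lower: 7 of 14 erythroid genes passed, all lower, with a list median of -0.63. Rhd, a blood group membrane protein, had 160, 169 and 196 CPM against 96.4, 99.3, 103 and 112, a difference of -0.77 (SE 0.09, adjusted p = 0.0206, edgeR). The heme enzyme gene Uros differed by -0.73 (SE 0.08), and Ppp1r15a, which restores translation after stress, by -0.76 (SE 0.08).

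The muscle-poor libraries did not share this pattern. Control replicate 4 had 105 CPM of Rhd, within the range of the BMAd-DTA libraries, and BMAd-DTA replicate 5 had 154, above every other BMAd-DTA library. With all 11 libraries and the set as a covariate, 0 of 14 erythroid genes passed (edgeR), 9 had an unadjusted p under 0.05 (64.3%, beside 14.8% of all genes), all lower, DESeq2 gave 2 genes, and the median was -0.43. The muscle-rich count also rested on single libraries: it was 0 without Control replicate 2 or any of the 4 BMAd-DTA libraries (1676 to 2006 genes at an unadjusted p under 0.05), 1 without Control replicate 1 and 268 without Control replicate 3. Of the 13 genes called by genotype alone, 7 were also called among the muscle-rich libraries.

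**Figure D5:**
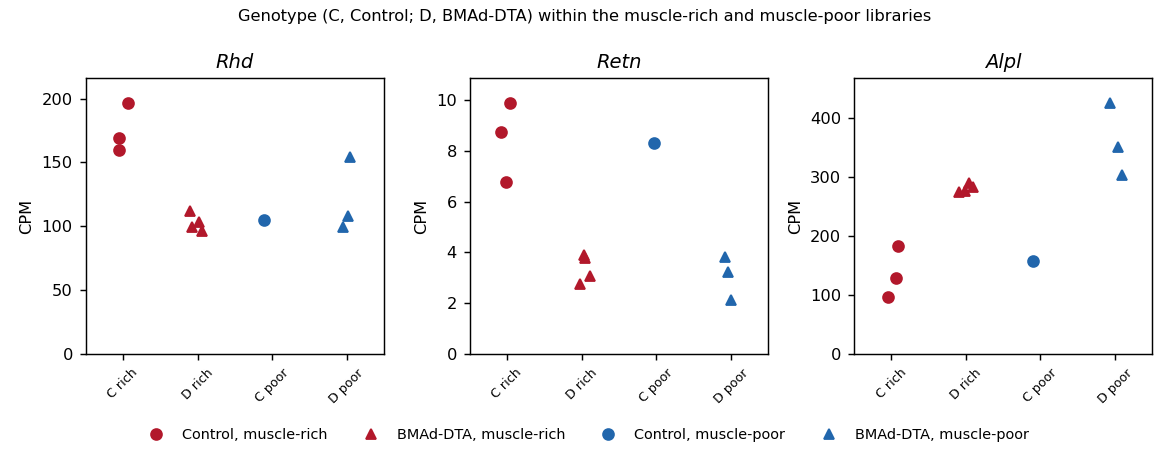
CPM of Rhd, Retn and Alpl in each library, split by genotype (C, Control, circles; D, BMAd-DTA, triangles) and by set (red, muscle-rich; blue, muscle-poor). Retn and Alpl keep the genotypes apart in both sets, and Rhd at 105 CPM in the muscle-poor Control library lies with the BMAd-DTA libraries.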

How the data were processed

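Stranded paired-end mRNA libraries of whole distal tibia were sequenced by the study. The deposited files hold raw counts per gene; the authors checked reads with FastQC 0.11.9 and aligned them to mm10 with STAR, and the merged table matches the read-strand counts of the per-library files for all 22600 genes. The authors' own test was DESeq2. Here, edgeR 4.0.16 (R 4.3.3) was used with TMM factors, a filter on low counts by group, a quasi-likelihood fit and Benjamini-Hochberg adjustment over all tested genes, with DESeq2 1.42.0 as an alternative. CPM used effective library sizes. The contrast of the sets is a description: a gene counted when the sets did not overlap and the fit gave at least 2-fold. Each SE is the size of the fitted difference or slope divided by the square root of its quasi-likelihood F value. For the sets, that F value belongs to a contrast chosen by the counts, so the SE is not a test. Genotype came from the labels; replicate numbers are names in accession order, and p-values measure the spread between these libraries, 1 per mouse. Gene positions are from GENCODE for mm10. Totals of 16969529 to 18637663 counts leave genes under 1 CPM with few counts, and intervals cover counting error only. The sets, gene lists and rules were chosen with earlier results of these data known. Named were the 4 markers, the extremes and most abundant member of each list, separate genes outside the lists with a mean of at least 50 counts, the genes with the smallest p and the pump micropeptides; other list members were named after their values were seen. The fits were tested on simulated data. Some items are not reported here.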

Additional observations from a re-analysis of the deposited data

Results flagged for a closer look

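The summed levels of all 28 lists were looked at within each genotype. In 5 of these groups 1 end library had a gap to its nearest neighbour, as a share of the whole range, past Dixon's 95% value. Chance gives about 1 in 20 such groups, so some of the 5 may be due to chance. In Control replicate 1 the osteoblast and osteocyte genes summed to 3522 CPM against 11736 to 13865 in the other Control libraries (share 0.878), the chondrocyte genes to 280 CPM against 771 to 795 (0.971) and the marrow stroma genes to 3039 CPM against 4358 to 4657 (0.845). In Control replicate 4 the erythroid genes summed to 16217 CPM against 31615 to 35976 (0.838). In BMAd-DTA replicate 5 the neutrophil genes summed to 22052 CPM against 27889 to 32097 (0.626). Control replicate 1 is muscle-rich and the other libraries named are muscle-poor. The part of these libraries in the medians of the marrow and bone lists is shown by the values in the report without Control replicate 1, Control replicate 4 or BMAd-DTA replicate 5.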

How the results depend on the processing

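The 69 genes higher in the muscle-rich set numbered 46 to 97 over the alternatives of scaling, tool, filter, size and libraries, and 63 to 84 when 1 library was left out; with both Control replicates 1 and 4 left out, chosen after seeing the data, they numbered 106. The 0 lower genes became 19 with no filter on low counts, 6 with 1.5-fold in place of 2-fold, 26 with both Control replicates left out, and 1 to 18 when 1 library was left out; fewer libraries make a separation of the sets easier to meet. For genotype with the set as covariate, the 3 higher and 1 lower genes became 310 and 233 in DESeq2, the higher genes became 11 with library totals only and 12 with genotype only, and leaving out 1 library gave 0 to 94 higher and 0 to 46 lower. Among the muscle-rich libraries DESeq2 gave 208 higher and 434 lower genes, and leaving out 1 library gave 0 to 60 higher and 0 to 208 lower. The 18 genes rising with the markers, which include the 4 markers, became 46 in DESeq2, with 4 falling, and 5 to 21 rising and 0 to 1 falling when 1 library was left out; BMAd-DTA replicate 6 gave the 5. The cause of these changes was not tested. The marker sum difference by genotype lay between -2.53 and -0.35 when 1 library was left out, with exact permutation p from 0.133 to 0.8. No single named gene changed sign where it was called. No paired analysis was possible because the labels give no replicate numbers that link Control and BMAd-DTA mice. Depth limits genes with under 10 counts a library, such as Pax7, and Myh7 in the Control libraries.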

Other observations

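Of the 13 genes that differed by genotype alone, 9 had an adjusted p above 0.05 once the muscle set was a covariate, all higher in BMAd-DTA. They included genes of matrix and matrix attachment. Mmp2, a gelatinase, had a log2 difference of 0.83 with genotype alone and 0.79 with the set (adjusted p = 0.0326 and 0.0508, edgeR), Loxl2, a collagen cross-linking enzyme, 0.77 and 0.74 (0.0326 and 0.0585), and the collagen-binding integrins Itga11 and Itga10 0.65 and 0.65 and 0.81 and 0.77 (0.0326 and 0.0585, and 0.0384 and 0.0641). Copz2, a coat protein of vesicles, had 0.76 and 0.75 (0.0326 and 0.0641). The differences themselves moved little, and whether the fits differ was not tested.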
